A study of Mus musculus with 16 samples.

Results

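The miR-302 cluster is a group of microRNA genes, Mir302a, Mir302b, Mir302c, Mir302d and Mir367, that lies inside the protein-coding gene Larp7. These 6 genes were picked by name from the 24421 genes measured in mouse embryos lacking miR-302 (KO) and in wild-type (WT) embryos, and each was followed as whole sequencing reads and as a normalised read count. All embryos were C57BL/6. At embryonic day 7.5 (E7.5) whole embryos were used, with 2 KO and 2 WT libraries. At E8.5 cells marked by Wnt1-Cre, a recombinase driven by a gene of the dorsal neural tube, were sorted by flow cytometry, with 4 KO and 3 WT libraries. At E9.5 Sox10-positive cells were sorted, with 2 KO and 2 WT libraries. A further E8.5 KO sample (KO4_5s) was not analysed here. The label of the E8.5 WT library WT1 has the same ending, which none of the 4 analysed E8.5 KO libraries has. What that ending marks was not established here. The labels give the genotype as KO or WT and do not say how much of the cluster the KO allele removes, or which libraries came from separate animals. The p-values therefore measure the spread between these samples, which may be technical.

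A microRNA is cut from a hairpin in a longer primary transcript. The mature strand is then loaded into an Argonaute protein, and its seed, the bases near the 5′ end, pairs with target messages and lowers their output. The miR-302 family is abundant in pluripotent cells. Larp7 is an La-related RNA-binding protein that caps the 3′ end of the 7SK RNA. The 7SK particle holds the kinase P-TEFb (Cdk9 with a cyclin T) in an inactive form, and P-TEFb released from it drives RNA polymerase II out of its pause near the promoter.

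In GENCODE M21 on GRCm38, Larp7 (ENSMUSG00000027968.11) runs on the minus strand of chromosome 3 from 127536714 to 127553349 in 13 exons. The 5 hairpins lie on the plus strand, antisense to Larp7, between its exons 8 and 9. Their order is Mir302b (127545228 to 127545301), Mir302c (127545363 to 127545430), Mir302a (127545496 to 127545564), Mir302d (127545624 to 127545689) and Mir367 (127545733 to 127545807). The cluster spans 580 bases of an intron of 1547 bases, and 0 of the hairpins overlap an annotated Larp7 exon. Mir367 ends 18 bases from exon 8.

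The mature 3p strands are shown because they sort the cluster into 2 kinds of seed and tie it to microRNAs elsewhere in the genome. Sequences are from RefSeq on GRCm38.p6, 5′ to 3′, with the seed (bases 2 to 8) in capitals.
mmu-miR-302b-3p: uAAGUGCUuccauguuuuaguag
mmu-miR-302d-3p: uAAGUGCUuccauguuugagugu
mmu-miR-302c-3p: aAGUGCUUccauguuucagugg
mmu-miR-367-3p: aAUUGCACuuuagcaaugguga
mmu-miR-291a-3p: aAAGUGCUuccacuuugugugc
mmu-miR-294-3p: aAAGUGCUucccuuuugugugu
mmu-miR-295-3p: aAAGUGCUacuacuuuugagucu
mmu-miR-92b-3p: uAUUGCACucgucccggccucc
mmu-miR-363-3p: aAUUGCACgguauccaucugua
mmu-miR-25-3p: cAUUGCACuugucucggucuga
The seed AAGUGCU stands in miR-302b-3p and miR-302d-3p and, outside the cluster, in miR-291a-3p, miR-294-3p and miR-295-3p of the Mir290 cluster. The annotated miR-302c-3p starts 1 base later, so its bases 2 to 8 read AGUGCUU, which no other entry has. The seed of miR-367-3p, AUUGCAC, is unrelated to these and is shared with miR-25-3p, miR-32-5p, miR-92a-3p, miR-92b-3p and miR-363-3p. miR-302a-3p is a further member of the cluster.

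The libraries held 4912827 to 14861728 reads assigned to genes. Levels are also given as RPM, reads scaled to a common library total, and a count of 0 in a library allows up to 3 reads, or 0.202 to 0.611 RPM. Such limits, and the intervals given for counts, describe counting error alone. All 6 epiblast markers had reads in every E7.5 library, and all 6 markers of migrating neural crest in every library of the 3 stages. The crest markers differed in level, summing to 17.8 to 29.0 RPM at E7.5 and 90.5 to 371 at E8.5 and E9.5. The E7.5 WT library WT2 stood apart in transcripts of the uterine lining, a maternal tissue: the 4 markers Ltf, Prss28, Prss29 and Muc1 summed to 1.02 to 2.04 RPM in the KO libraries and to 36.6 in WT1 and 1313 in WT2. In the E9.5 libraries the migrating crest markers summed to 90.5 to 165 RPM in KO and 308 to 326 in WT, and 5 erythroid markers to 20804 in KO1 and 17.9 in KO2, and to 0.274 to 1.61 in WT. In the E8.5 libraries the erythroid markers summed to 1637, 2484, 1.48 and 97.6 RPM in KO1 to KO4, and to 0.324 to 0.405 in WT, while the crest markers overlapped (167 to 371 in KO and 181 to 247 in WT). The E9.5 libraries also split by transcript length across 11578 genes. Spearman's correlation between transcript length and a library's deviation from the mean of its stage was -0.474 and -0.580 in the KO libraries and 0.599 and 0.658 in the WT libraries. The length trend thus ran along genotype at E9.5, and removing it can also take out or add a difference between the genotypes. The code number in the labels was 171 for both E9.5 KO libraries and 209 for both WT libraries, so code and genotype cannot be told apart there.

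At E7.5 the hairpins of Mir302a to Mir302d were covered by reads in both WT libraries and by none in either KO library. Summed over the 4 genes, there were 0 and 0 reads in KO1 and KO2, against 14 and 25 reads in WT1 and WT2. Mir302a had 0 and 0 reads in the KO libraries and 5 and 9 in the WT libraries. Mir302d had 0 and 0 reads in the KO libraries and 5 and 11 in the WT libraries. The genotypes did not overlap for any of the 4 hairpins, although Mir302b (0 and 0 in KO, 2 and 2 in WT) and Mir302c (0 and 0 in KO, 2 and 3 in WT) rested on very few reads. For scale, the genotypes did not overlap, with KO lower, in 12.7% of the 12492 genes that passed the minimum at E7.5, a set that holds none of the hairpins. Without WT2 the summed reads were 0 in KO and 14 in WT1.

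In RPM the summed level was 0 in both KO libraries and 1.52 and 4.24 in WT1 and WT2 (2.88 ± 1.92, SD, n = 2). Pooling the reads of each genotype gave 0 in KO, which allows up to 3 reads over the group or 0.219 RPM, and 2.59 RPM in WT (exact 95% Poisson interval 1.84 to 3.53). Against that limit the pooled level was at least 11.8-fold lower in KO, and at least 6.98-fold lower without WT2. These bounds take the WT level as measured, without its own counting error. On the same footing Mir302a was at least 4.25-fold and Mir302d at least 4.85-fold lower, and the reads over Mir302b and Mir302c were too few for a useful bound. An exact two-sided permutation test of the summed level gave p = 0.333, the smallest that 2 against 2 libraries can give. The KO allele may lack the sequence of these hairpins, in which case 0 reads there were fixed in advance. That, fewer cells that transcribe the cluster and less RNA per cell cannot be told apart in whole embryos.

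**Figure D1:**
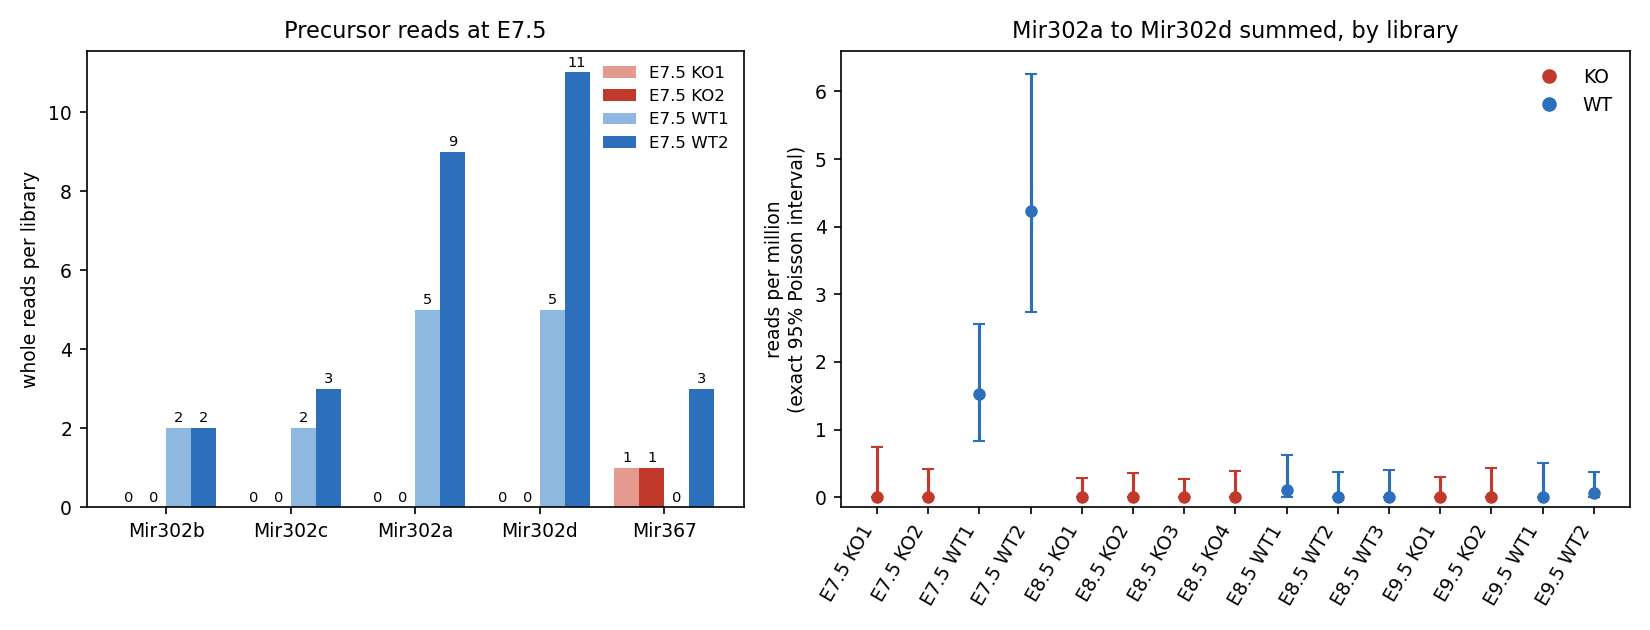
Left, whole reads over each hairpin in the 4 E7.5 libraries (y axis, reads; bars, libraries). Right, Mir302a to Mir302d summed in each of the 15 libraries, in RPM with exact 95% Poisson intervals; KO libraries are red and WT libraries blue. The E7.5 WT libraries, at 1.52 and 4.24, stand above all others, which lie at 0.111 or below.

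The 2 WT libraries differed from each other. WT2 had 2.78 times the summed hairpin level of WT1 in RPM, with a counting interval of 1.39 to 5.78. The same library also held more Larp7 (1.91 times WT1 in RPM). The uterine lining markers were 36.6 RPM in WT1 and 1313 RPM in WT2, and their part in the hairpin result was not tested. The summed trophoblast markers ran the other way, at 4208 to 7267 RPM in KO and 780 to 1542 in WT. Most of that sum was Prl3d1, at 3550 and 6278 RPM in KO and 1234 and 591 in WT. Prl2c2, Plac1, Rhox9 and Plet1 were also higher in both KO libraries. Elf5 (5.90 and 11.2 in KO, 13.0 and 9.83 in WT) and Tpbpa overlapped. The epiblast markers overlapped, at 1798 to 3711 in KO and 1791 to 3075 in WT.

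Within the cluster the WT reads lay mostly over Mir302a and Mir302d, the pair nearest to Mir367. Of 42 E7.5 WT reads over the 5 hairpins, 16 fell on Mir302d (38.1%, exact 95% binomial interval 23.6 to 54.4%) and 14 on Mir302a (33.3%, 19.6 to 49.5%). Mir302c took 5 (11.9%, 3.98 to 25.6%), Mir302b 4 (9.52%, 2.66 to 22.6%) and Mir367 3 (7.14%, 1.5 to 19.5%). The hairpins are 66 to 75 bases long, and the order was the same per length, with 24.2 and 20.3 reads per 100 bases for Mir302d and Mir302a, and 7.35, 5.41 and 4 for Mir302c, Mir302b and Mir367. The interval of Mir302d overlaps those of Mir302a and Mir302c, and lies above those of Mir302b and Mir367. Per length, Larp7 messenger RNA of 2121 bases stood at 93.4 RPKM (RPM per kilobase) over the pooled E7.5 WT libraries, beside 16.1 RPKM for Mir302d. How reads reaching past a hairpin of 66 bases were counted is not stated, so these values are not on one footing.

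**Figure D2:**
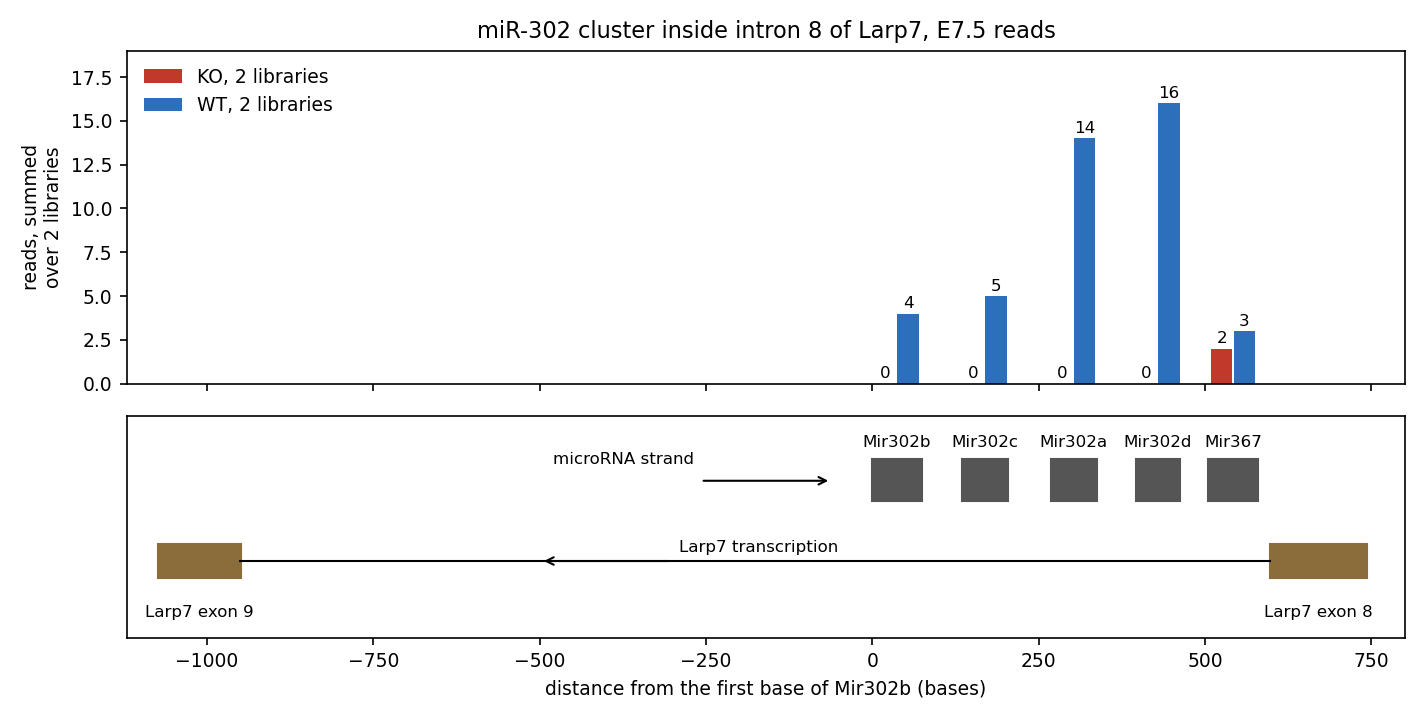
Reads at E7.5, summed over the 2 libraries of each genotype, over each hairpin (upper panel, y axis) along the Larp7 intron that holds the cluster (lower panel, to scale; x axis, bases from the first base of Mir302b). KO bars are red and WT bars blue; the largest WT sums are 14 at Mir302a and 16 at Mir302d, and the one KO sum above 0 is 2 at Mir367.

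Mir367 did not follow the other 4. It had 1 read in each E7.5 KO library, and 0 and 3 reads in WT1 and WT2, so the genotypes overlapped. The KO to WT ratio of the pooled level was 0.733 with a counting interval of 0.0612 to 6.40, which allows either a much lower or a higher level in KO. A single further read was found in E8.5 KO2, and none in any other library of E8.5 or E9.5. Whether reads at Mir367 came from the cluster's own transcript or from unspliced Larp7 was not tested, since the cDNA kit does not mark strand. The same limit holds for the other hairpins in WT.

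After E7.5 the hairpins were almost unread in both genotypes. At E8.5 Mir302a to Mir302d had 0 reads in all 4 KO libraries, and 1, 0 and 0 reads in the 3 WT libraries. At E9.5 there were 0 and 0 reads in KO, and 0 and 1 in WT, the single read being over Mir302b. In WT the pooled summed level was 72.7-fold lower at E8.5 than at E7.5 (counting interval 12.3 to 2946) and 57.3-fold lower at E9.5 (9.69 to 2320). The stages differ in the cells taken as well as in time, and the genotypes could not be told apart at this depth at E8.5 and E9.5: the 0 reads of KO allow up to 0.0649 RPM over the E8.5 group and 0.143 over the E9.5 group, against pooled WT levels of 0.0355 and 0.0451. These are poly(A)-primed libraries, so all of these values concern longer transcripts and not the mature microRNA.

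Larp7, the gene around the cluster, was expressed in every library, and no difference between the genotypes passed the test at any stage. It was the only one of the 6 genes to pass the minimum mean of 10 normalised reads, and it passed at each stage. At E7.5 its normalised read count was 923 and 989.6 in KO1 and KO2, and 942 and 2069 in WT1 and WT2. WT1 lay between the KO libraries and WT2 stood above the other 3. The log2 fold change, KO over WT on the log2(value + 1) scale, was -0.55 (SE 0.40, 95% interval -1.47 to 0.37, limma adjusted p = 1). Without WT2 it was 0.02. In RPM the KO libraries (135 and 140) lay below the WT libraries (146 and 279). The counting intervals of KO2 (132 to 148) and WT1 (138 to 154) overlapped. In normalised reads 12.7% of all genes tested lay lower in KO without overlap, and that share was not counted in RPM.

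At E8.5 Larp7 stood at 2265, 2984, 2334 and 2147 in KO1 to KO4, and at 3086, 2638 and 1799 in WT1 to WT3. The lowest and the highest library were both WT. The log2 fold change was -0.02 (SE 0.24, 95% interval -0.55 to 0.51, limma adjusted p = 0.994), or 0.04 with replicate numbers as a block (adjusted p = 0.921). The interval bounds the ratio of KO to WT between 0.682 and 1.43.

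At E9.5 Larp7 was 500.4 and 1136 in KO1 and KO2, and 844 and 825 in WT1 and WT2. The KO libraries lay on either side of the closely matched WT libraries, and their mean (818 ± 449, SD, n = 2) was near that of WT (835 ± 13.7, SD, n = 2). The log2 fold change was -0.15 (SE 0.40, 95% interval -1.16 to 0.86, limma adjusted p = 0.774). Leaving out KO1 turned it to 0.44, and leaving out KO2 moved it to -0.74, each resting on a single KO library. With the length trend removed it was -0.91 (limma adjusted p = 0.128). In RPM Larp7 was 38.4 and 77.7 in KO, against 114 and 110 in WT. The median log2 fold change of all genes was -1.06 in RPM and -0.14 in normalised reads, and Larp7 differed from these medians by 0.02 and -0.01. Exact two-sided permutation tests of Larp7 alone gave p = 0.667, 0.971 and 1 at E7.5, E8.5 and E9.5, where the smallest possible values are 0.333, 0.0571 and 0.333. None of the 6 genes stands in the authors' deposited tables of selected genes that were read here. Those cover higher genes at E7.5, and higher and lower genes at E8.5 and E9.5. No list of lower genes at E7.5 was read, so the hairpins could not be looked up there.

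**Figure D3:**
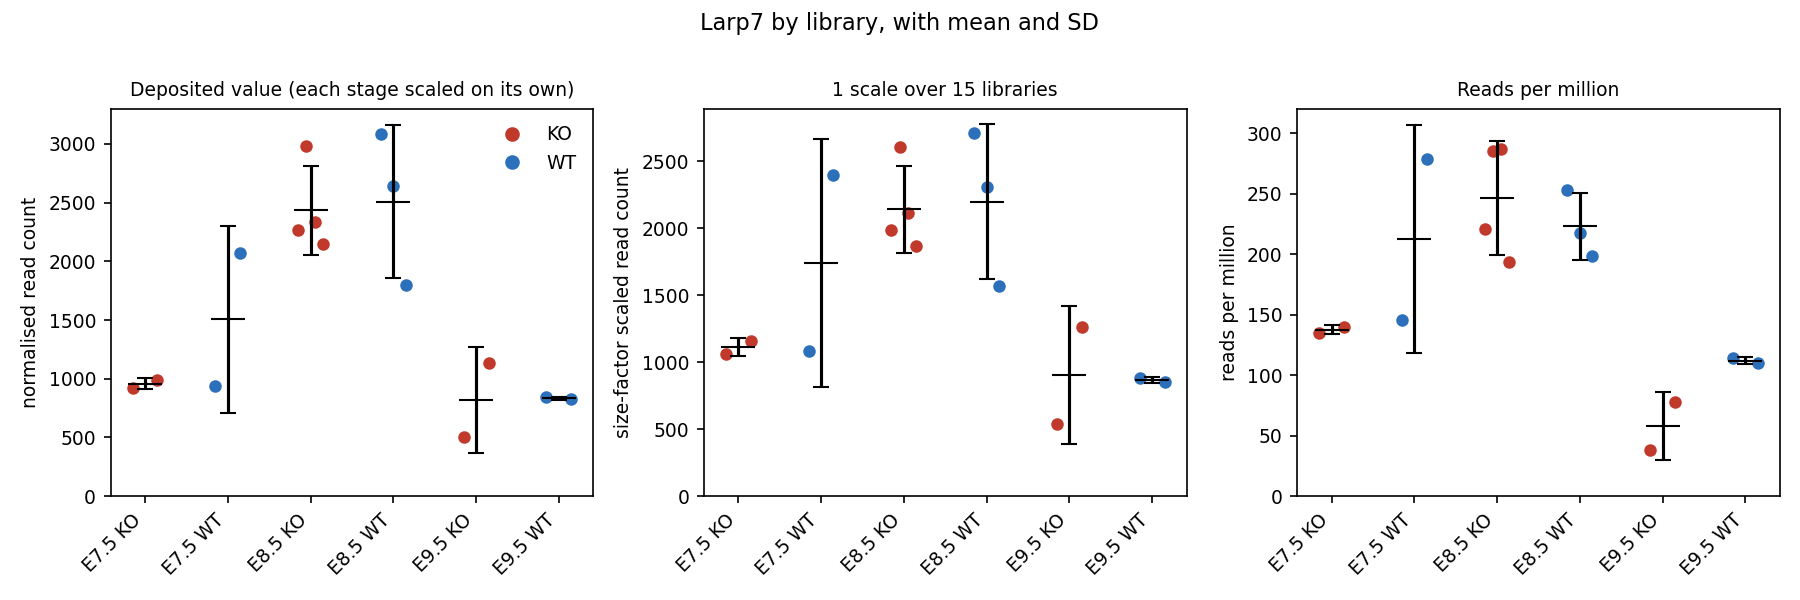
Larp7 in each library (points; KO red, WT blue) with the group mean and SD, as the deposited normalised read count, on 1 size-factor scale over all 15 libraries, and in RPM. As deposited, KO and WT overlap at each stage. In RPM the KO libraries lie below the WT libraries at E7.5 (135 and 140 beside 146 and 279). They do so at E9.5 too (38.4 and 77.7 beside 114 and 110), where the median log2 fold change of all genes in RPM is -1.06. The share of all genes without overlap in RPM was not counted.

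Across stages Larp7 was highest in the E8.5 cells. On 1 size-factor scale over all 15 libraries its mean was 1112 ± 67.4 in E7.5 KO (SD, n = 2) and 1741 ± 926 in E7.5 WT (n = 2). It was 2142 ± 325 in E8.5 KO (n = 4) and 2197 ± 577 in E8.5 WT (n = 3). It was 904 ± 512 in E9.5 KO (n = 2) and 867 ± 24.1 in E9.5 WT (n = 2). From high to low the groups thus ran E8.5 WT, E8.5 KO, E7.5 WT, E7.5 KO, E9.5 KO and E9.5 WT, and no neighbours in this order differed beyond their spread. In RPM the order within E8.5 and within E9.5 turned round. The E9.5 WT libraries lay below all E8.5 WT libraries, 2.47-fold on this scale and 1.98-fold in RPM. The E9.5 KO libraries lay below all E8.5 KO libraries, 2.56-fold on this scale and 4.45-fold in RPM. Of the 6 stage comparisons within a genotype none passed an exact two-sided permutation test: both of these gave a Benjamini-Hochberg adjusted p of 0.4, with raw p = 0.2 in WT and 0.133 in KO, the smallest the numbers of libraries allow. In WT the hairpin reads were 72.7-fold lower at E8.5 than at E7.5, while Larp7 ranged over 1572 to 2711 at E8.5 and 1086 to 2396 at E7.5.

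The genes with the pattern most like Larp7 over the 15 libraries were found by Pearson's r of log2(RPM + 1) among 10006 genes. They were Bnip3l (r = 0.957), a mitophagy receptor, Mphosph8 (0.914), a reader of methylated histone H3 in the HUSH complex, 2700099C18Rik (0.909), Ccdc181 (0.908) and 2610015P09Rik (0.907). The median r of all candidates was 0.26. All 5 had their lowest group mean in E9.5 KO, Bnip3l for example with 99.8 RPM in E9.5 KO and 223 in E9.5 WT. Larp7 itself had its lowest mean RPM there (58.0), so picking genes by likeness to it favoured this. The median log2 fold change of all genes in RPM was -1.06 at E9.5. The share of all genes with their lowest mean in E9.5 KO was not counted. Ssb, the La protein itself, ranked 33rd with r = 0.846, and Cdk9 had r = 0.0989. These are descriptions over libraries that share stage, depth and length trend.

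For the summed hairpins the same measure named Ltf (r = 0.992), Prss29 (0.988), Prss28 (0.974), Clu (0.901) and Sprr2f (0.896). Ltf encodes lactotransferrin, and Prss28 and Prss29 encode implantation serine proteases of uterine glands. Ltf stood at 0.158 RPM in E7.5 KO and 92.7 in E7.5 WT on average, with 8.71 in WT1 and 177 in WT2. The likeness therefore rests on the 2 E7.5 WT libraries, the ones with hairpin reads.

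The partners of the Larp7 protein were taken as a list of 7 genes of the 7SK particle and P-TEFb, of which 6 were tested. None passed at E7.5 or E8.5, where limma called 0% of all genes, and 2 were lower in KO at E9.5, where it called 47.5% of all genes (24.5% higher and 23% lower). These were Ccnt1 and Ccnt2, the T cyclins that pair with Cdk9. Of all genes 385 at E7.5 and 742 at E8.5 had an unadjusted p under 0.05. At E7.5 edgeR called 0 genes and DESeq2 31 (0.248%), and at E8.5 edgeR called 0 and DESeq2 28 (0.228%), none of them on this list. At E9.5 edgeR called 45.6% and DESeq2 48.9% of all genes, and each called 2 members of the list. The list's median log2 fold change was 0.12, -0.12 and -0.44 at E7.5, E8.5 and E9.5, beside -0.01, -0.03 and -0.14 for all genes tested.

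Ccnt2 had a normalised read count of 82.3 and 76.5 in E9.5 KO, against 397 and 563 in E9.5 WT (log2 fold change -2.56, SE 0.31, limma adjusted p = 0.00325). Ccnt1 had 99.2 and 100.3 in KO, against 530 and 512 in WT (-2.37, SE 0.25, limma adjusted p = 0.00228). For both the KO libraries lay below the WT libraries without overlap, as did 41.7% of all genes. In the authors' deposited table of lower genes at E9.5 the log2 fold changes of Ccnt2 and Ccnt1 are -2.60 and -2.38.

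The kinase itself did not pass the test. Cdk9 had 1634 and 2003 in E9.5 KO, against 1373 and 1281 in E9.5 WT. Its log2 fold change was 0.45 (SE 0.18, limma adjusted p = 0.0867), and -0.44 in RPM. Mepce, the methyltransferase that caps 7SK, had 111 and 146 in KO and 117 in both WT libraries. Hexim1, the P-TEFb inhibitor of the particle, had 31.7 and 3.40 in KO and 25.3 and 20.7 in WT. Neither passed the test.

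Both T cyclins have long transcripts (7397 and 7640 bases), and transcript length moved with the E9.5 fold changes of all genes (Spearman -0.641 across genes). Genes of up to 2143 bases had a median log2 fold change of 1.51, and those from 4789 bases on had one of -1.59. The part of the crest and erythroid markers in the E9.5 results was not tested. Since the length trend ran along genotype, the fit with it removed cannot separate the 2. With the length trend removed, which left 24.1% of all genes called, Ccnt2 and Ccnt1 no longer passed (-1.05, limma adjusted p = 0.0570, and -0.86, adjusted p = 0.113), and Cdk9 was higher (0.93, adjusted p = 0.0428). Leaving out KO1 gave 5 called members, with 8694 of the 12000 genes tested called. Leaving out KO2 gave 2, with 7180 genes called, and leaving out WT1 or WT2 gave 0, with 1107 or 794 genes called. Of the genes called at E9.5 and named here, Supt4a and Nanog passed whichever library was left out (limma adjusted p of at most 0.0276 and 0.0385), and each of the others missed the threshold at least once, with its highest adjusted p between 0.0551 (Nelfe) and 0.417 (Med26).

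**Figure D4:**
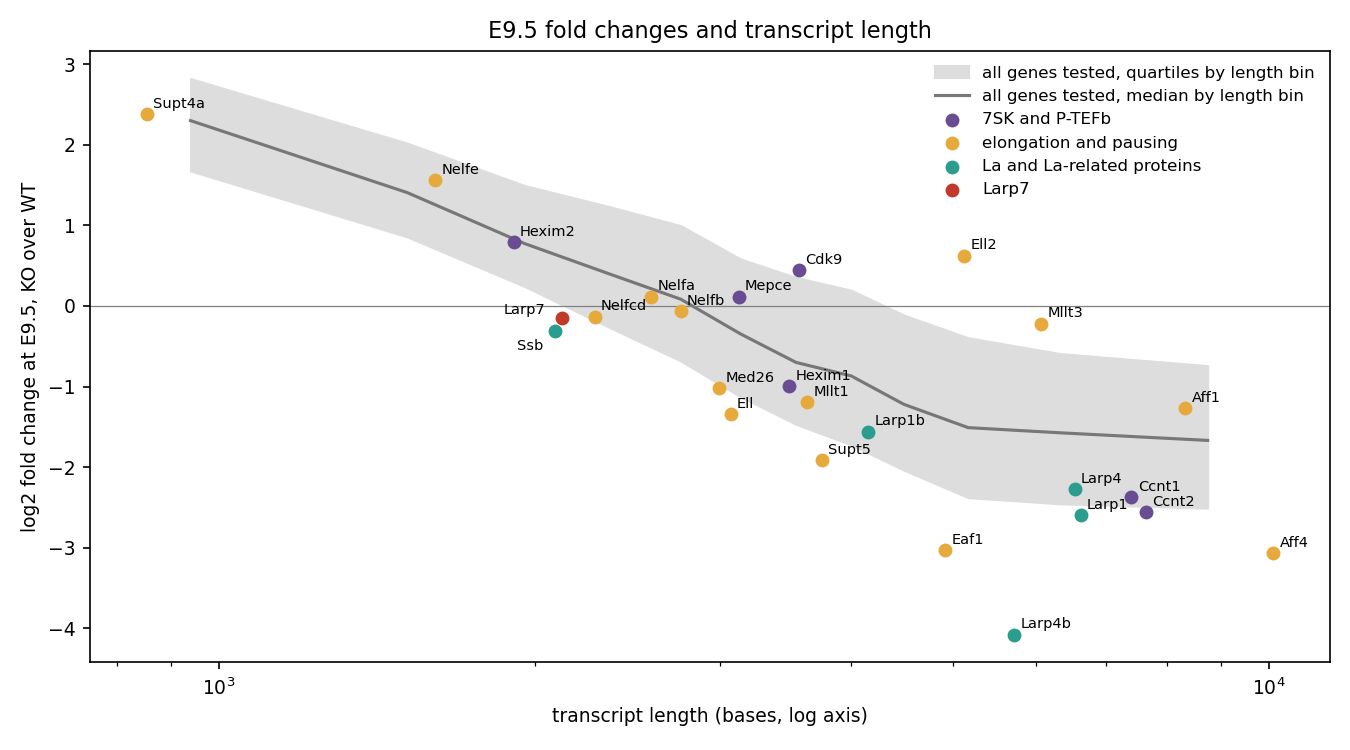
Log2 fold change at E9.5, KO over WT (y axis), against transcript length (x axis, log scale) for Larp7 and the listed genes (points), with the median (line) and quartiles (band) of all genes tested in 12 bins of length. Larp4b at -4.08 lies below the band of genes of its length, and Cdk9 at 0.45 above it.

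At E7.5 Ccnt1 had 271 and 256 normalised reads in KO, against 290.3 and 300.3 in WT (log2 fold change -0.16, limma adjusted p = 1). The authors' deposited table of higher genes at E7.5 lists Ccnt1 with a log2 fold change of 1.59 and an adjusted p of 0.01, a direction that the deposited read counts of these 4 libraries do not show. Which samples that table compares is not given in the sources used here.

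Of 16 genes of transcript elongation and pausing, 16 were tested at E7.5 and E8.5 and 14 at E9.5. None was called by limma at E7.5 or E8.5. At E9.5, 2 were higher and 4 lower, 42.9% of the 14 beside 47.5% of all genes, with a list median of -0.62 beside -0.14 for all genes. Supt4a, the small subunit of the elongation factor DSIF, had 3710 and 4476 normalised reads in KO, against 802 and 762 in WT (log2 fold change 2.38, SE 0.17, limma adjusted p = 0.000820). Its larger partner Supt5 had 425 and 282 reads in KO, against 1219 and 1408 in WT (-1.92, SE 0.26, limma adjusted p = 0.00436). The subunits of one complex thus lay on opposite sides, with transcripts of 854 and 3755 bases, and Supt4a's groups did not overlap, with KO higher, as for 38.6% of all genes. With the length trend removed Supt4a was at -0.04 (limma adjusted p = 0.835), and Supt5 at -1.32 (limma adjusted p = 0.0140).

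Nelfe, a subunit of the negative elongation factor NELF, was also higher at E9.5 (1.56, SE 0.16, limma adjusted p = 0.00192), and was at 0.20 with the length trend removed. Aff4 (-3.07), the scaffold of the super elongation complex, Eaf1 (-3.03), a partner of the ELL factors, and Med26 (-1.02), a Mediator subunit, were lower, and with the length trend removed none of these 3 passed (limma adjusted p = 0.0942, 0.0965 and 0.0669). The replicate block called 0.376%, 5.41% and 47.7% of all genes at E7.5, E8.5 and E9.5. At E8.5 the block, which leaves out KO4, called Nelfe alone of this list, at an adjusted p of 0.0175. Nelfe had 1069 to 1215 normalised reads in KO1, KO2 and KO3 and 2248 in KO4, against 1967 to 2117 in WT. KO4 and WT2 share the code number 169.

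Larp7 belongs to the La and La-related proteins, and 5 of the other 6 were tested at each stage. None passed at E7.5 or E8.5, and at E9.5 3 of the 5 were lower and none higher, where 23% of all genes were lower, with a list median of -2.27 beside -0.14 for all genes. Larp4b had 54.9 and 15.3 normalised reads in KO, against 431 and 603 in WT (-4.08, SE 0.65, limma adjusted p = 0.00661). Larp1, which binds messages of the translation machinery, had 467 and 146 in KO, against 1493 and 1677 in WT (-2.59, SE 0.54, limma adjusted p = 0.0149). Larp4, a poly(A)-binding protein partner, had 255 and 122 in KO, against 736 and 1002 in WT (-2.27, SE 0.41, limma adjusted p = 0.00943). Their transcripts are 5720 to 6617 bases long, and with the length trend removed Larp4b passed (-2.70, limma adjusted p = 0.0201) and Larp1 and Larp4 did not (limma adjusted p = 0.0892 and 0.0680). Ssb, with a short transcript of 2088 bases, had 2305 and 4197 in KO, against 3839 and 3880 in WT (-0.31, limma adjusted p = 0.411), and -1.11 with the length trend removed (limma adjusted p = 0.0375).

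At E7.5 Larp1 ran the other way, with 2573 and 2723 normalised reads in KO, against 1642 and 1043 in WT (1.02, SE 0.32, unadjusted p = 0.0138, limma adjusted p = 1). Larp1b did so too, with 83.5 and 97 in KO, against 47.8 and 20.1 in WT (1.5, limma adjusted p = 1). Neither passed the threshold, and 16.1% of all genes had KO libraries above the WT libraries without overlap at that stage.

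**Figure D5:**
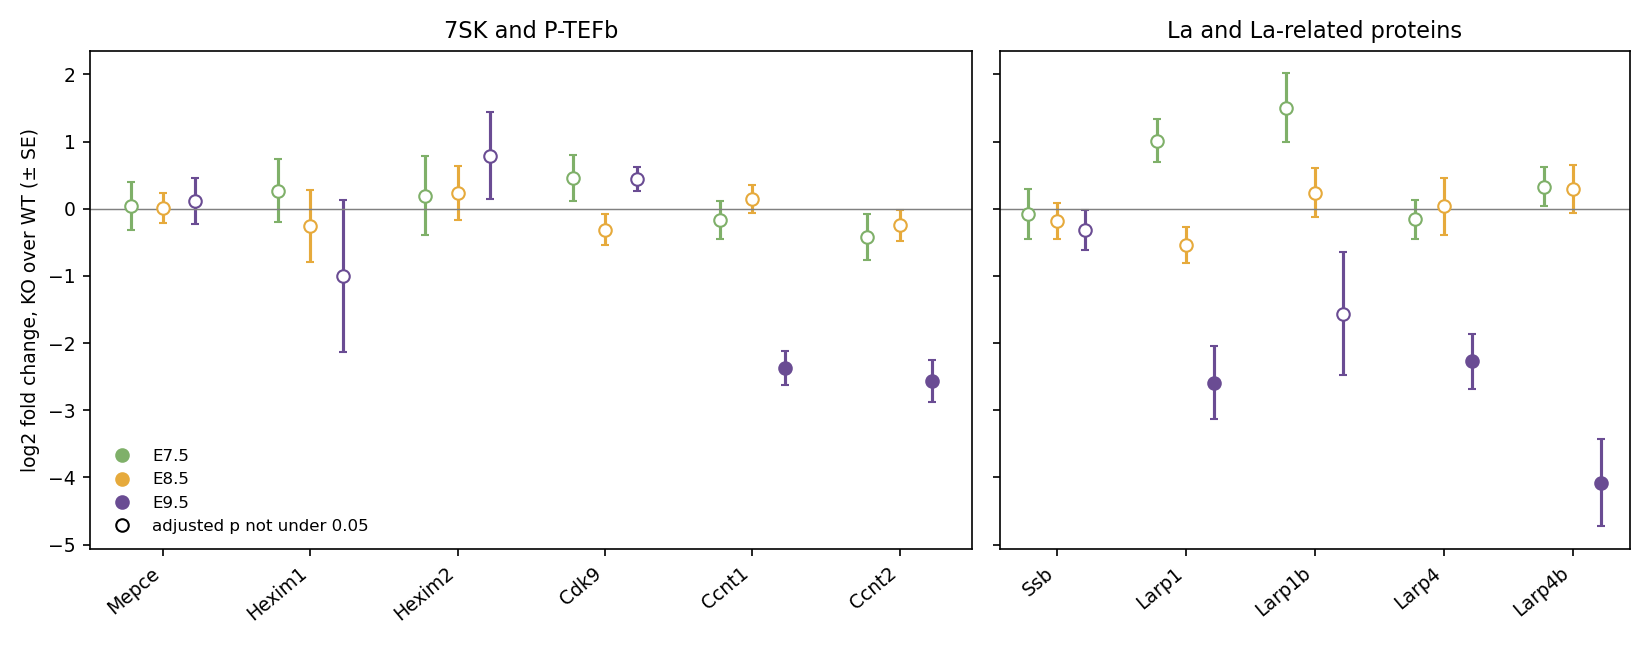
Log2 fold change, KO over WT, with its SE (y axis) for the 7SK and P-TEFb genes and the La and La-related genes at E7.5 (green), E8.5 (orange) and E9.5 (purple); filled points have a limma adjusted p under 0.05. The filled points are all at E9.5 and below 0, from -2.27 for Larp4 to -4.08 for Larp4b.

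Hairpins of the microRNA clusters and genes that hold a related seed were sparsely read too. Of 24 such hairpin genes in the tables, some of them cluster mates with another seed, 10 had no read in any library. The 9 genes of the Mir290 cluster, whose miR-291a-3p, miR-294-3p and miR-295-3p carry the seed AAGUGCU printed above, had 2 reads in all 15 libraries together. Mir363, whose 3p strand shares the seed AUUGCAC with miR-367-3p, was the most read. It had 6 and 3 reads in KO and 10 and 5 in WT at E7.5. At E8.5 it had 1, 2, 4 and 25 reads in KO1 to KO4, and 13, 28 and 6 in WT1 to WT3. At E9.5 it had 12 and 12 in KO, and 1 and 2 in WT. The 5 libraries with 12 or more reads are the 5 of E8.5 and E9.5 whose rank correlation with transcript length was -0.374 or below. The gene is 75 bases long, and whether the length trend sets these counts was not tested.

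The hosts of related microRNAs were well covered. Mir17hg, the transcript that holds Mir17 to Mir92-1, had 65.0 to 142 normalised reads in KO and 119 to 213 in WT at E8.5 (-0.71, limma adjusted p = 0.815). Mcm7, a replication helicase gene that holds Mir106b, Mir93 and Mir25, was lower at E9.5, with 3334 and 3397 in KO, against 4589 and 4401 in WT (-0.42, SE 0.13, limma adjusted p = 0.0477). It missed the threshold in DESeq2 (adjusted p = 0.0541) and with the length trend removed (-0.39, limma adjusted p = 0.0648). AU018091, a neighbour of the Mir290 cluster on chromosome 7, had 324 and 299 in KO, against 260 and 144 in WT at E7.5, and at most 4.22 in any later library.

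Pou5f1, Sox2 and Nanog are pluripotency factors reported at the miR-302 promoter. None passed the test at E7.5. Pou5f1 had 2605 and 789 normalised reads in KO, and 1963 and 1557 in WT, and both Nanog and Sox2 overlapped too. After E7.5 Pou5f1 was low in both genotypes, at 0 to 67.3 normalised reads in E8.5 KO and 12.3 to 29.3 in E8.5 WT. Nanog was lower in KO at E8.5 under some of the fits, with 32.5 to 93.8 in the 4 KO libraries, against 158 to 184 in the 3 WT libraries (-1.77, SE 0.37). The groups did not overlap, as for 2.82% of all genes with KO lower. The limma adjusted p was 0.607, that with the replicate block, which leaves out KO4, 0.0312 and that of DESeq2 0.0177. The erythroid markers summed to more in each of these 4 KO libraries than in WT, although in KO3 4 of the 5 had no read. Their part in the Nanog difference was not tested.

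At E9.5 Nanog was higher in KO, with 916 and 600 normalised reads, against 91.1 and 88.3 in WT (3.03, SE 0.30, limma adjusted p = 0.00192). It remained so in RPM (2.15) and with the length trend removed (2.37, limma adjusted p = 0.0124). Pou5f1 was at 0 in both KO libraries, and at 0 and 0.505 in WT. The 6 epiblast markers, Nanog among them, summed to 46.7 to 86.1 RPM in KO and 87.7 to 96.3 in WT. Of these 6, 4 were at 0 in each KO library, and 3 and 2 in WT1 and WT2. Most of the sum was Nanog in KO1 and KO2 (70.3 and 41.0 RPM) and Dnmt3b in WT1 and WT2 (75.2 and 84.2). Mouse Nanog has near-identical processed copies, between which the counting could split reads.

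Of the neighbours of Larp7, Zgrf1, Camk2d and Ank2 were tested at each stage, and Ank2 at E9.5 was the one call. At E9.5 all 3 had KO libraries below the WT libraries without overlap, as did 41.7% of all genes. Zgrf1, a DNA repair helicase gene, starts 140 bases from the start of Larp7 on the opposite strand. It had 96.0 and 68.9 normalised reads in KO and 102 and 153 in WT at E7.5. It had 27.8 to 115 in KO and 93.4 to 176 in WT at E8.5, and 50.7 and 25.5 in KO and 86.1 and 159 in WT at E9.5. Its log2 fold changes of -0.61, -1.03 and -1.68 did not pass the test (limma adjusted p = 1, 0.815 and 0.0609), and the E9.5 value was -0.16 with the length trend removed.

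On the other side Camk2d, a calmodulin-dependent kinase gene, had 109.8 and 96.9 normalised reads in KO, against 127 and 145 in WT at E9.5 (-0.39, SE 0.34, limma adjusted p = 0.365), and 0.96 with the length trend removed (limma adjusted p = 0.0923). Ank2, an ankyrin gene with a transcript of 14305 bases, was lower at E9.5 (-2.26, SE 0.60, limma adjusted p = 0.0294), and did not pass with the length trend removed (-0.78, limma adjusted p = 0.330). Neurog2, a neurogenesis factor gene tested only at E8.5, had 27.1 to 91.6 normalised reads in KO, against 11.7 to 23.3 in WT (1.44, SE 0.48, limma adjusted p = 0.807). The groups did not overlap for it, as for 3.71% of all genes with KO higher. Arsj and Alpk1 were below the minimum at every stage.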

How the data were processed

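Total RNA was turned into poly(A)-primed cDNA with SMART-Seq v4 and into Nextera XT libraries, per the labels' protocols. The submitters' processing notes name FastQC 0.11.5, STAR 2.7.0f and the mm10 build; what counted and normalised the reads is not stated there. Each stage has its own table from the authors, whose signal values behave as gene counts scaled by 1 factor a library. The authors also deposited tables of selected genes with log2 fold changes and p-values. Dividing each column by its smallest positive value gave whole reads, and so depth, for 100% of values within 0.01.

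KO was compared with WT at each stage by limma 3.58.1 (R 4.3.3, trended empirical Bayes, two-sided) on log2(value + 1), keeping genes whose mean reached 10, with Benjamini-Hochberg adjustment over all genes at 0.05. EdgeR 4.0.16 and DESeq2 1.42.0 on the recovered reads were alternatives, as were other pseudocounts, minimums and scalings, a replicate block, code numbers and each library left out. Removing each library's loess trend over transcript length (GENCODE M21), crossing replicate numbers and a size-factor scale over all 15 libraries were chosen after seeing the data. The fits were tested on simulated data. At E8.5 same-numbered libraries deviated together (correlations 0.179, 0.200 and 0.493), but KO1 with WT2 (0.320) and KO2 with WT1 (0.247) correlated more. No same-numbered libraries share a code number there, so the numbers are not known to be pairs. The block is estimated from libraries whose number occurs in both genotypes, which leaves out KO4.

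The 6 genes and the lists were chosen with earlier results of these data known. An item of 1 list is not reported here. Named genes are the 6, the 3 nearest genes on each side, list members past the threshold with up to 4 others of smallest unadjusted p, and the 5 genes most like Larp7 or the hairpins whose mean reached 5 RPM. Python 3.11.15, scipy 1.17.1 and matplotlib 3.10.9 were used for the rest.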

Additional observations from a re-analysis of the deposited data

Results flagged for a closer look

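Among 23 genes checked in the 4 E8.5 KO libraries, 4 had a library far from the other 3, where the nominal rate of the rule is about 1 in 20. The share of all genes that it flags in these libraries was not counted, so these 4 are not known to exceed it. Nelfe stood at 2248 in KO4, against 1069 to 1215 in the others, and Mir363 at 29.0 in KO4, against 0.784 to 2.41. Mcm7 stood at 4941 in KO1, against 5848 to 5882, and Ank2 at 96.2 in KO3, against 42.9 to 50.9. All are normalised read counts.

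For 5 genes all KO libraries lay on one side of WT at one stage and on the other side at another. The differences were not tested, and the share of all genes that switched sides was not counted. For scale, the genotypes did not overlap in 28.7%, 6.54% and 80.3% of all genes tested at E7.5, E8.5 and E9.5. The log2 fold change at E9.5 minus that at E7.5 was -1.60 for Mllt1, -3.61 for Larp1, -3.06 for Larp1b and -4.41 for Larp4b. For Nanog the change at E9.5 minus that at E8.5 was 4.8.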

How the results depend on the processing

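No alternative took Larp7 past the threshold at E7.5 or E8.5. Its direction turned at E8.5 with quantile normalisation (0.134), RPM (0.131), the replicate block (0.0358) and codes 163 and 169 as a block (0.0607), and at E9.5 with DESeq2 (0.00592), all log2 fold changes. Leaving out 1 library gave -1.11 to 0.0199 for E7.5, -0.242 to 0.147 for E8.5 and -0.737 to 0.444 for E9.5. Where 1 library remained in a group it was assumed to vary like the others. Of the 7SK and P-TEFb genes, 0 to 5 were called for E9.5 with 1 library left out, as calls over all genes ran from 794 to 8694, 1 with the length trend removed and 2 in the other fits. At the earlier stages that number was 0 throughout. The causes were not tested. The summed hairpin level in E7.5 WT ran from 1.52 to 4.24 RPM. The replicate block gave 47 calls in whole embryos, 663 in Wnt1-Cre cells and 5722 in Sox10-positive cells, and crossed numbers gave 48 (E7.5) and 6665 (E9.5). At E8.5, where it leaves out KO4 and the numbers are not known to be pairs, it changed among named genes the calls of Nanog and Nelfe and no other. The hairpins rest on at most 42 reads a group.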
